A study of Mus musculus with 16 samples.

Results

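Motile cilia are the beating projections that clear mucus from the airway. They are built by multiciliated cells under a small set of transcription factors, and their core, the axoneme, is a ring of microtubule doublets around a central pair. Outer and inner dynein arms slide the doublets against each other, radial spokes and the nexin-dynein regulatory complex control the bend, and assembly factors in the cytoplasm put the arms together before they enter the cilium. In the newborn these cells line the airways of the lung, whereas cells of the liver parenchyma carry no motile cilia. Defects in many of these genes cause primary ciliary dyskinesia, a disease of the airways and sinuses.

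The genes described here are 50 named genes of this machinery, chosen by symbol. Of them, 46 were found among the 25054 entries of the counts table, each on 1 entry, and Dnah3, Dnah12, Dnai1 and Dnai2 were not found by symbol and were not analysed here. The level of each was read in all 16 libraries.

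The study asked whether N-acetyl cysteine (NAC), an antioxidant, given during gestation changes ciliation and the transcriptome in newborn mice with a deletion of exon 2 of Man1a2, an alpha-mannosidase of glycoprotein processing. Heterozygous males and females came from breeding Man1a2 mutant mice with C57BL/6J mice. They were fed a solution giving NAC at up to 1 g/kg or water as placebo from 1 week before breeding until delivery. Their pups were live wild-type (WT) or heterozygous, or dead heterozygous or null (homozygous), and lung and liver were labelled separately, which gives 1 library for each of the 16 combinations. Each library pooled RNA of 3 experiments, or 2 for dead heterozygous pups, so no combination has a replicate library. Pups were checked every 8 h for 24 h, the dead ones were harvested at death and the live ones at 24 h, so death and age cannot be told apart.

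The tissue labels were checked against Sftpc, the surfactant gene of alveolar type 2 cells, and Alb, the albumin gene of hepatocytes. Lung content was found in 7 libraries, with 4446 to 11758 raw CPM (counts scaled to a fixed library total) of Sftpc and at most 135 of Alb. Another 8 held liver content, with at least 51003 CPM of Alb and at most 3.10 of Sftpc. The remaining library, labelled dead null placebo lung, was mixed, with 5553 CPM of Sftpc and 9280 of Alb. Only 7 of 16 libraries had the content of their label. The lung-content libraries were those labelled lung of live WT NAC, live heterozygous NAC and dead heterozygous placebo pups, and those labelled liver of live WT placebo, live heterozygous placebo, dead heterozygous NAC and dead null placebo pups, and no lung-content library of dead null NAC pups was found. Whether pup group or treatment was also exchanged was not tested, since counts over the whole of Man1a2 (29.7 to 75.4 normalized CPM) do not isolate exon 2. Lung-content libraries held 7236906 to 11808840 counts and liver-content ones 14115814 to 16107764, with 4.05 to 26.2% and 0.85 to 6.29% of them on the ribosomal RNA gene Rn45s. In such bulk samples, fewer ciliated cells and less RNA per cell cannot be told apart.

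The factors of the RFX family, 2 of which are members, bind a motif called the X-box in promoters of ciliary genes. It was looked for on both strands of the 300-base promoter windows of RefSeq (build GRCm38.p6, 250 bases before to 50 after the gene start), which hold 39 of the 46 genes. It occurred in 3 of the 39 (7.69%) and in 215 of 27025 genes overall (0.796%). The 3 stretches are shown because they differ in content pattern, Spag16 and Hydin being higher in lung content and Dnaaf2 lower. Each runs 5′ to 3′ on the strand of its gene, with the X-box in capitals:
Spag16, a central pair protein, chr1:69826834-69826913, plus strand: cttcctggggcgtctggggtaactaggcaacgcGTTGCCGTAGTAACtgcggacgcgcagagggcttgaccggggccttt
Hydin, a central pair protein, chr8:110266923-110267002, plus strand: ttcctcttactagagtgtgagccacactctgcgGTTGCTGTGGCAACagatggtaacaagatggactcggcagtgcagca
Dnaaf2, a dynein arm assembly factor, chr12:69198400-69198479, minus strand: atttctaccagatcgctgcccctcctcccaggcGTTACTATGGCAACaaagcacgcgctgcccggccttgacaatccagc
The shorter element GTTGCC, which overlaps the X-box, was in 19 of the 39 promoters (48.7%), against 14.1% of all genes. Rfx2 and Rfx3 themselves were among the 19, as were Dnah10, Tekt1, Tekt2, Drc1 and Mns1. The forkhead core TGTTTAC, the element of the family to which Foxj1 belongs, was in 3 of 39 (7.69%, in Ak7, Dnah17 and Myb) against 4.05% of all genes. Among 69 other motile cilium genes with a promoter window, 9 held the X-box, 31 GTTGCC and 6 TGTTTAC. A match is a description of these letters and not a measured binding site.

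Levels are given below as normalized CPM, that is CPM after TMM scaling over the 16 libraries. The motile cilium genes separated the libraries by content and not by label. In 38 of the 46, all 7 lung-content libraries lay above all 8 liver-content ones, in 3 (Myb, Mns1 and Dnaaf2) all lay below, and in 5 the ranges overlapped. The share of all genes whose ranges lie apart was not computed. These counts, and those of ranges apart given below, therefore have no background to be read against. With edgeR's quasi-likelihood test over 15 libraries, 37 of 43 tested genes were higher and 3 lower in lung content (Benjamini-Hochberg adjusted p under 0.05). The background for these counts is wide, since 35.5% of all tested genes were called higher and 38.7% lower. Tested genes had a mean of at least 1 CPM over the 15 libraries. Only 14 members reached that mean within liver content, so most tested members passed the filter through lung content, where they were high. That selection favors calls as higher, so the count of 37 is a description and not separate support. The median log2 fold change of the tested motile cilium genes was 3.99, or 3.59 with 10 genes that had at most 3 counts in each liver-content library set to their bound, against -0.07 for all genes. With the libraries whose label and content agreed alone, 36 of 42 were higher and 3 lower, an alternative added after the data were seen. Of all 14009 genes tested there, 4142 were higher and 4428 lower. Of 71 other motile cilium genes found, 59 were tested, 52 were higher and 3 lower. The 3 of these with the largest fitted change were Dynlrb2 (9.13 to 12.2 normalized CPM in lung content), Spata18 (7.20 to 13.6) and Cdhr3 (6.53 to 11.6), both Dynlrb2 and Spata18 without a count in liver content and Cdhr3 at 0 to 0.09 there.

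**Figure D1:**
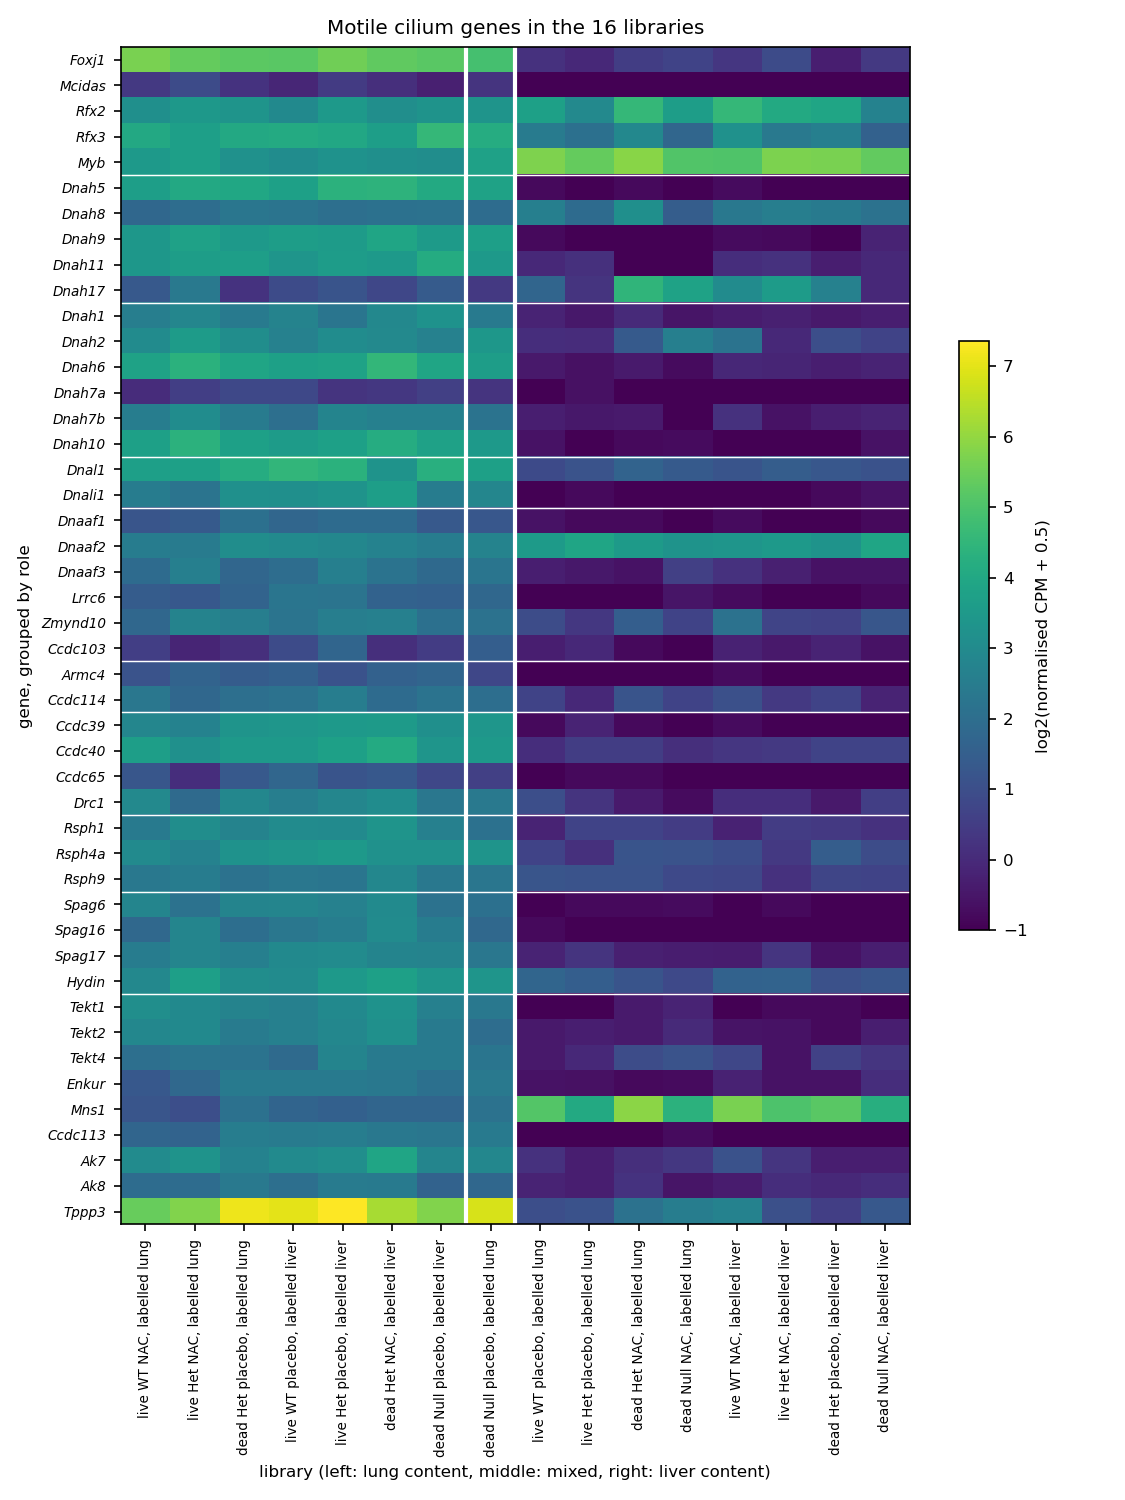
Level of each of the 46 motile cilium genes (vertical axis, grouped by role) in each of the 16 libraries (horizontal axis), as log2(normalized CPM + 0.5) in color. The 7 lung-content libraries stand to the left of the mixed one and the 8 liver-content libraries to its right, and 38 genes are brighter in every lung-content library than in any liver-content one. The share of all genes with this pattern was not computed.

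Of the regulators, Foxj1 (chr11:116330704-116335399, minus strand, GRCm38), the forkhead factor that switches on the motile cilium program, was at 51.1, 40.8 and 37.5 normalized CPM in the lung-content libraries labelled lung (live WT NAC, live heterozygous NAC and dead heterozygous placebo). In those labelled liver it was at 36.9 (live WT placebo), 45.6 (live heterozygous placebo), 38.9 (dead heterozygous NAC) and 36.9 (dead null placebo). The 8 liver-content libraries held 0.32 to 1.38 and the mixed one 29.3. Its lung-content values varied by 1.39-fold from lowest to highest, the least of any member, and the log2 fold change against liver content was 5.84 (SE 0.21, adjusted p = 4.12e-11, edgeR). Mcidas, which acts upstream of Foxj1 to start multiciliation, was near the floor, from 0.33 to 1.39 in lung content, with a median of 0.68, and had no count in any liver-content library. Its pooled level in lung content was at least 17.0-fold that in liver content (lower end of the 95% counting interval), and it did not pass the filter on low values.

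Rfx3, an RFX factor of ciliary genes, ranged from 12.4 to 23.2 normalized CPM in lung content, with a median of 15.8, and from 2.54 to 8.79 in liver content, with a median of 4.85. Its ranges were apart, with a log2 fold change of 1.68 (SE 0.26, adjusted p = 3.89e-05, edgeR). Rfx2, its relative, did not follow it. It was at 7.26 to 10.8 in lung content, with a median of 9.35, inside the liver-content range of 5.96 to 23.4 with a median of 13.9, and was not called (log2 fold change -0.56, SE 0.27, adjusted p = 0.080, edgeR). Myb, which acts in early multiciliated cells and is best known as a regulator of blood progenitors, was highest in liver content. Its level was 32.4 to 57.9 there, with a median of 45.9, and 7.79 to 12.5 in lung content, with a median of 8.90 (log2 fold change -2.26, SE 0.16, adjusted p = 1.88e-08, edgeR). The 8 erythroid marker genes summed to 8456 to 47000 normalized CPM in liver content and 4753 to 12249 in lung content, and their part in the Myb result was not tested.

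The heavy chains that drive the outer arm fell into separate groups. Dnah5 (chr15:28203752-28472052, plus strand), a heavy chain often mutated in primary ciliary dyskinesia, was at 12.3, 16.02 and 15.3 in the lung-content libraries labelled lung, in the order given for Foxj1, and at 13.1, 20.3, 20.4 and 16.5 in those labelled liver. In liver content it had 3 counts over all 8 libraries, against 1301 in lung content, a pooled ratio of 512 (95% counting interval 175 to 2484). Dnah9, a heavy chain of the outer arm along the distal axoneme, was at 10.2 to 14.6 in lung content, with a median of 11.6, and at 0 to 0.40 in liver content, with a median of 0.04. Dnah11 (chr12:117877982-118199043, minus strand), the proximal counterpart that the study also followed by PCR, was at 10.2, 12.1 and 12.3 in the lung-content libraries labelled lung and at 9.64, 11.8, 10.8 and 17.0 in those labelled liver. Liver content held 0 to 0.65 of it, with a median of 0.48, and its log2 fold change was 4.92 (SE 0.42, adjusted p = 1.14e-07, edgeR). Dnah11 shares exonic sequence with Cdca7l on the opposite strand, and whether strand was used in counting is not given in the sources used here.

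The other heavy chains listed for the outer arm, Dnah8 and Dnah17, are best known from the sperm flagellum. Dnah8 was at 2.93 to 4.41 in lung content and 2.28 to 8.38 in liver content, and the ranges overlapped (log2 fold change -0.34, 95% interval of the fit -0.86 to 0.17). Dnah17 was at 0.68 to 4.74 in lung content, with a median of 1.73, and at 0.48 to 21.7 in liver content, with a median of 6.70. Its liver-content values were widely spread, from the library labelled dead null NAC liver at the bottom to that labelled dead heterozygous NAC lung at the top, and it was not called (log2 fold change -1.49, SE 0.69, adjusted p = 0.065, edgeR). Its exons overlap those of Pgs1 on the other strand. All 6 inner arm heavy chains found lay higher in every lung-content library than in any liver-content one. All 5 that were tested were called higher, against 35.5% of all tested genes. Dnah10, with 11.5 to 20.1 in lung content and 0 to 0.16 in liver content, had a pooled ratio of 222 (95% counting interval 102 to 607). Dnah6 was at 13.1 to 22.7 and 0.10 to 0.46. Dnah7a and Dnah7b are near-identical copies, so their split of reads, with medians of 0.97 and 5.68 in lung content, is uncertain.

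Dnal1, an outer arm light chain, was at 9.39 to 21.9 in lung content, with a median of 17.6, and at 1.35 to 2.68 in liver content, with a median of 1.83. Dnali1, an inner arm light intermediate chain, was at 4.18 to 12.5 in lung content and 0 to 0.16 in liver content. The assembly factors did not move as a block. Dnaaf1, Dnaaf3, Lrrc6 and Zmynd10 were called higher in lung content, although the ranges of Zmynd10 overlapped (2.93 to 6.13 against 0.78 to 3.89). Dnaaf2, shown above with its X-box, was at 5.01 to 7.97 in lung content and 9.21 to 14.5 in liver content, and was called lower in lung content (log2 fold change -0.87, SE 0.18, adjusted p = 5.49e-04, edgeR). Ccdc103 did not pass the filter. Exons of Dnaaf2, Dnaaf3 and Ccdc103 overlap those of another gene on the same strand, Tnni3 in the case of Dnaaf3, so their counts are uncertain.

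Most structural genes of the axoneme were called higher in lung content, where 35.5% of all tested genes were called higher. The filter favors such calls, as given above, so they are a description. Mns1, described below, was called lower. Both docking factors, Armc4 and Ccdc114, all 4 genes of the molecular ruler and the nexin-dynein regulatory complex, all 3 radial spoke genes and all 4 central pair genes were called higher in lung content, and in each the ranges were apart. Ccdc39, which with Ccdc40 sets the axonemal repeat, was at 5.99 to 11.2 in lung content, with a median of 9.49, and at 0 to 0.39 in liver content, with a median of 0.04. Its exons overlap those of Ttc14 on the other strand. Rsph1 and Rsph9 of the radial spoke head were at 4.98 to 9.47 and 3.90 to 6.72 in lung content, with medians of 7.55 and 4.57. In liver content they were at 0.37 to 1.09 and 0.65 to 1.83, with medians of 0.84 and 1.25, with more than 3 counts of each in every library. Hydin was likewise detected in every liver-content library, at 1.29 to 2.78 against 6.93 to 12.8 in lung content. Spag16 had 1 count over the liver-content libraries against 403 in lung content, a pooled ratio of 475 (95% counting interval 84.8 to 18824).

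Of 9 microtubule and other axonemal genes, 8 were called higher in lung content, against 35.5% of all tested genes. Tekt1, a filament protein inside the doublets, was at 5.67 to 9.13 in lung content, with a median of 7.29, and at 0 to 0.40 in liver content, with a median of 0.04. Ccdc113 had 362 counts against 1, a pooled ratio of 427 (95% counting interval 76.2 to 16913). Together with Dnah5, Spag16 and Dnah10, Ccdc113 and Dnah9 (pooled ratio 143, interval 72.2 to 332) had the largest fitted changes, from 7.22 to 8.60 on the log2 scale. Mns1 (chr9:72438011-72462025, plus strand), a protein of the axonemal doublets, went the other way. It was at 1.53 to 3.81 in lung content, with a median of 2.70, and at 16.4 to 58.8 in liver content, with a median of 33.1 (log2 fold change -3.66, SE 0.27, adjusted p = 2.58e-08, edgeR). Its exons overlap those of Tex9 on the other strand.

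**Figure D2:**
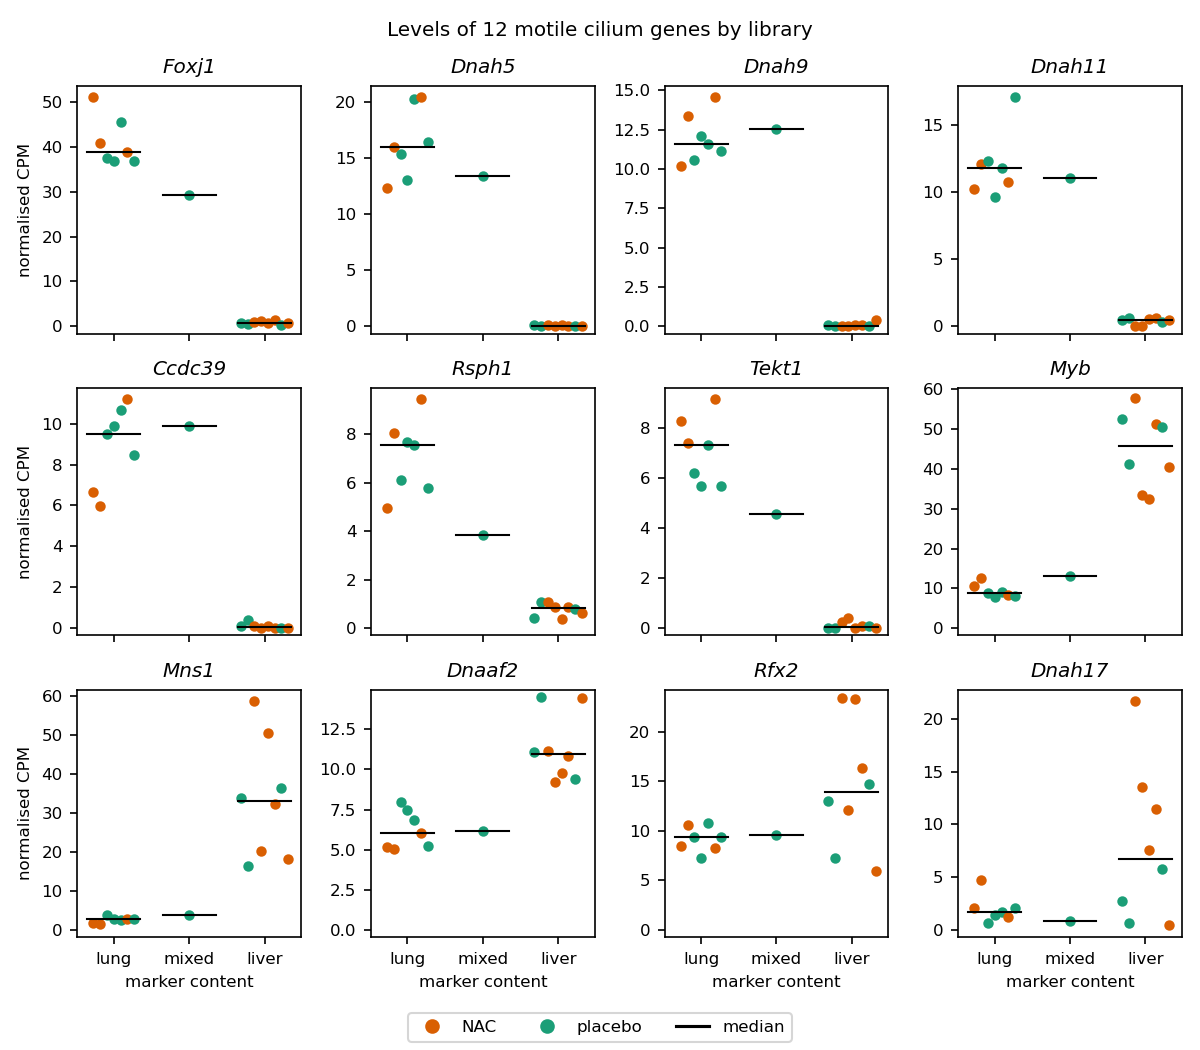
Normalized CPM (vertical axis, from 0 and linear) of 12 motile cilium genes in each library, by marker content (horizontal axis), with NAC libraries in orange, placebo libraries in green and a line at the median of each content. Foxj1, Dnah5, Dnah9, Dnah11, Ccdc39, Rsph1 and Tekt1 sit high in all 7 lung-content libraries, Myb, Mns1 and Dnaaf2 sit high in the 8 liver-content ones, and Rfx2 and Dnah17 overlap.

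Per kilobase of annotated exon, the members spanned a wide range in lung content, from a median of 0.076 normalized CPM per kb for Dnah7a to 41.3 for Tppp3. Tppp3, a tubulin polymerization promoting protein, and Foxj1 at 14.8 were at the top, and each was apart from the next gene in the order over all 7 libraries. Rsph1 (5.50), Tekt1 (4.49) and Dnali1 (3.998) followed. Of 45 neighbors in the order, 3 had ranges that did not overlap, the last being Dnah7b (0.28) above Dnah8 (0.14), so most of the order lies within the spread between libraries. The heavy chains of the arms ranked low by this measure, Dnah6 at 1.09 and Dnah5 at 1.02 being the highest. Dnai1 and Dnai2 have no place in this order.

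**Figure D3:**
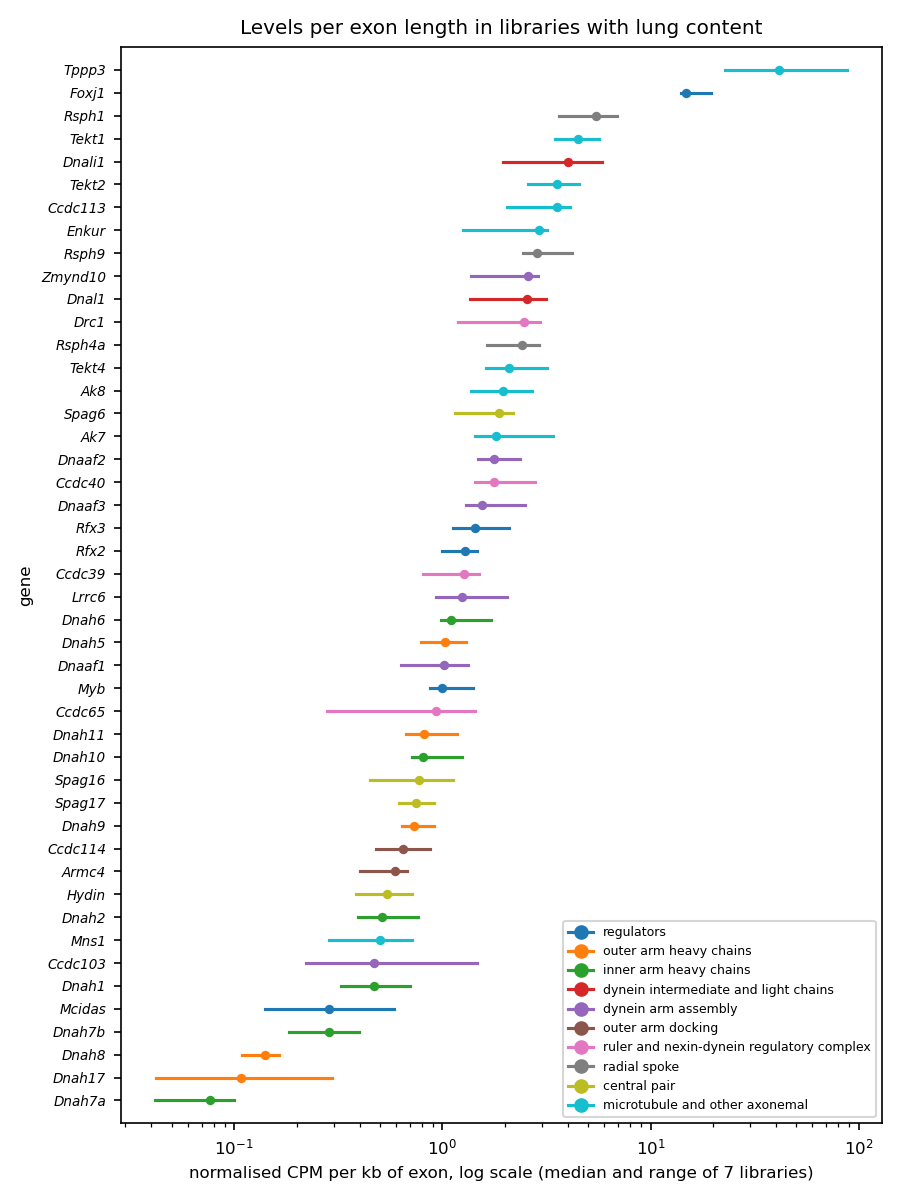
Normalized CPM per kb of exon on a log scale (horizontal axis) for each motile cilium gene (vertical axis) in the 7 lung-content libraries, with the median as a point, the range as a line and roles in color. Tppp3 (median 41.3) and Foxj1 (14.8) stand above the rest, and most neighboring ranges overlap.

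In the mixed library, labelled dead null placebo lung, 35 of the 46 genes lay within their lung-content range, 9 below and 2 above. The median of its ratio to the lung-content median was 0.89, with a lowest of 0.47 and a highest of 2.61. Foxj1, Rsph1 and Tekt1 were among those below, at 29.3, 3.84 and 4.55 normalized CPM. The 12 hepatocyte markers summed to 24928 normalized CPM in this library, against 186 to 1149 in lung-content and 182630 to 315346 in liver-content libraries.

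Pairs of NAC and placebo libraries with the same labels compared different contents. In every labelled pair, one library was of liver content and the other of lung content or mixed. In libraries labelled lung, 37 of 43 members were at least 2-fold higher with NAC and 3 lower in live WT pups (against 27.5 and 28.5% of all genes), and 36 of 41 higher and 3 lower in live heterozygous pups (28.4 and 31.9%). The sign turned in dead pups, with 4 of 43 higher and 37 lower in dead heterozygous (25.3 and 25.9%) and 3 of 42 higher and 35 lower in dead null pups (22.1 and 24.9%). In libraries labelled liver, 4 of 45 were higher and 36 lower in live WT (24.4 and 25.6%), 3 of 44 higher and 38 lower in live heterozygous (25.1 and 25.3%), 37 of 43 higher and 3 lower in dead heterozygous (26.1 and 25.8%) and 3 of 42 higher and 37 lower in dead null pups (29.1 and 26.7%). Each sign followed the library that held lung content, or both contents in dead null lung. With 1 library a side these values have no replicate check and no test was made.

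Lung-content libraries of the same pup group could be paired across labels in 3 groups, and there the differences were small. In live WT pups, none of 45 members was at least 2-fold higher with NAC and 3 were lower, Tppp3, Enkur and Dnah7a (against 5.83 and 8.27% of all genes), with a median log2 difference of -0.15. In live heterozygous pups 1 of 45 was higher, Dnah17, and 6 were lower, Tppp3, Ccdc103, Ccdc65, Dnali1, Lrrc6 and Drc1 (9.41 and 15.7%, median -0.16). In dead heterozygous pups 2 of 44 were higher, Ak7 and Spag16, and none lower (7.14 and 7.44%, median 0.17). With library size alone as the scaling, 8 were lower in live WT and 17 in live heterozygous pups, but 16.3 and 27.8% of all genes were lower too and the median of all genes moved to -0.37 and -0.46.

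**Figure D4:**
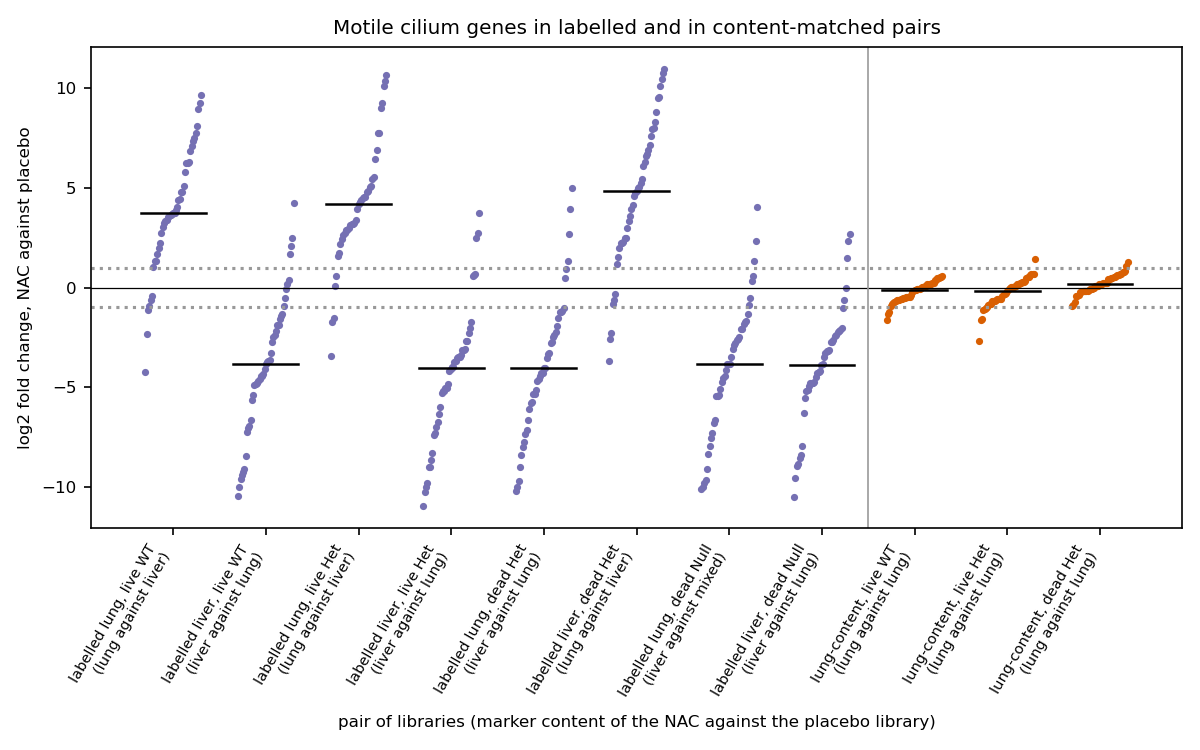
Log2 fold change, NAC against placebo, of each tested motile cilium gene (points) in 8 pairs of libraries with the same labels (purple) and 3 pairs of lung-content libraries of the same pup group (orange), with a line at the median and dotted lines at a 2-fold difference. Labelled medians lie between -4.03 and 4.81 and turn sign with the content of the pair, and content-matched medians lie between -0.16 and 0.17.

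Whether NAC changed these genes was therefore tested among the 7 lung-content libraries, 3 NAC and 4 placebo, with pup group as a term. The dead null library has no NAC counterpart there, so the estimate rests on the 3 pairs above. None of 45 tested members was called higher with NAC and 2 were lower, Tppp3 and Dnal1, against 14.4% of 13990 genes called higher and 11.3% lower. DESeq2 called the same 2. In all, 3 members had an unadjusted p under 0.05, the 2 called and Dnah17. Of all genes between the 10th and 90th percentile of the members' mean level, 21.3% were called in either direction, with a median SE of 0.26 against 0.27 for the members. Of 64 other motile cilium genes tested, none was higher and 1 was lower, Stk36, a kinase needed for the central pair. It was at 5.71 to 9.68 normalized CPM with NAC and 15.1 to 18.3 with placebo (log2 fold change -1.13, SE 0.23, adjusted p = 0.011, edgeR). The median log2 fold change of the members was -0.04 and that of all genes -0.03.

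Tppp3 (chr8:105467493-105471526, minus strand), which is also expressed outside ciliated cells, was at 41.9 (live WT), 54.7 (live heterozygous) and 76.4 (dead heterozygous) normalized CPM with NAC. With placebo it was at 128, 163 and 140 in the same groups, and at 53.8 in dead null pups. The NAC value was the lower one in each of the 3 pup groups, while the dead null placebo library lay inside the NAC range. The log2 fold change was -1.34 (SE 0.18, 95% interval -1.75 to -0.93, adjusted p = 0.0027, edgeR). It was 3.89-fold from lowest to highest over the lung-content libraries, with an SD of 0.78 on the log2 scale against 0.053 from counting alone, and the mixed library held 115.

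Dnal1 (chr12:84114366-84147498, plus strand) was at 12.6, 12.8 and 9.39 with NAC in live WT, live heterozygous and dead heterozygous pups, and at 21.9, 19.9 and 17.6 with placebo in the same groups. The dead null placebo library held 18.9. The NAC and placebo ranges did not overlap. Its log2 fold change was -0.77 (SE 0.18, 95% interval -1.17 to -0.37, adjusted p = 0.016, edgeR). Its exons overlap those of Pnma1 on the other strand.

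Both calls were lost when the mixed library was counted as lung content (adjusted p = 0.051 for Tppp3 and 0.058 for Dnal1, edgeR), where all calls also went down, to 607 higher and 351 lower. Dnal1 was also lost without the lung-content library of live WT NAC (adjusted p = 0.071), live WT placebo (0.074) or live heterozygous placebo pups (0.055, all edgeR). Calls over all genes depended on single libraries too, with 736 higher and 361 lower without live heterozygous placebo, 844 and 480 without live heterozygous NAC, 1136 and 723 without live WT NAC and 1211 and 721 without live WT placebo, against 2012 and 1575 with all 7.

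For most members the fit bounded the NAC difference. In 30 of 45 the 95% interval lay within a 2-fold change either way, and over all members the intervals ran from -2.33 to 1.88. Foxj1 was at 38.9 to 51.1 with NAC and 36.9 to 45.6 with placebo, which overlap, as do the values of Dnah5, Dnah9, Dnah11, Ccdc39 and Rsph1. Tekt1 was at 7.38 to 9.13 with NAC and 5.67 to 7.29 with placebo, which do not overlap, and was not called (log2 fold change 0.39, 95% interval -0.15 to 0.93). Among lung-content libraries, the club and secretory airway markers summed to 2794 to 3446 normalized CPM with NAC and 3011 to 3128 with placebo (8 genes, 1 with a median under 1 CPM in either). Scgb1a1 is the largest part of that sum, at 1318 to 1903 normalized CPM in lung content, and the sum hides single genes. In each of the 3 pup groups with both treatments, Cyp2f2 and Aldh1a1 of this list were lower with NAC and Scgb3a2 and Hp were higher. The other 4 went both ways, as seen after the values were known. Hp is not particular to the airway here, at 2921 to 4212 normalized CPM in liver content and 237 to 323 in lung content. Cyp2f2 was at 190, 135 and 189 with NAC in live WT, live heterozygous and dead heterozygous pups, at 331, 323 and 280 with placebo, and at 176 in dead null pups. Aldh1a1 was at 101, 75.1 and 72.2 with NAC, at 152, 183 and 198 with placebo, and at 78.7 in dead null pups. The 12 hepatocyte markers, 8 of them higher with NAC in each of the 3 groups, summed to 755 to 1149 with NAC and 186 to 780 with placebo. The 8 alveolar type 2 markers summed to 7519 to 13990 and 10529 to 12042, and the 6 alveolar type 1 markers to 1677 to 2243 and 2150 to 2459. The part of these markers in the Tppp3 and Dnal1 results was not tested.

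**Figure D5:**
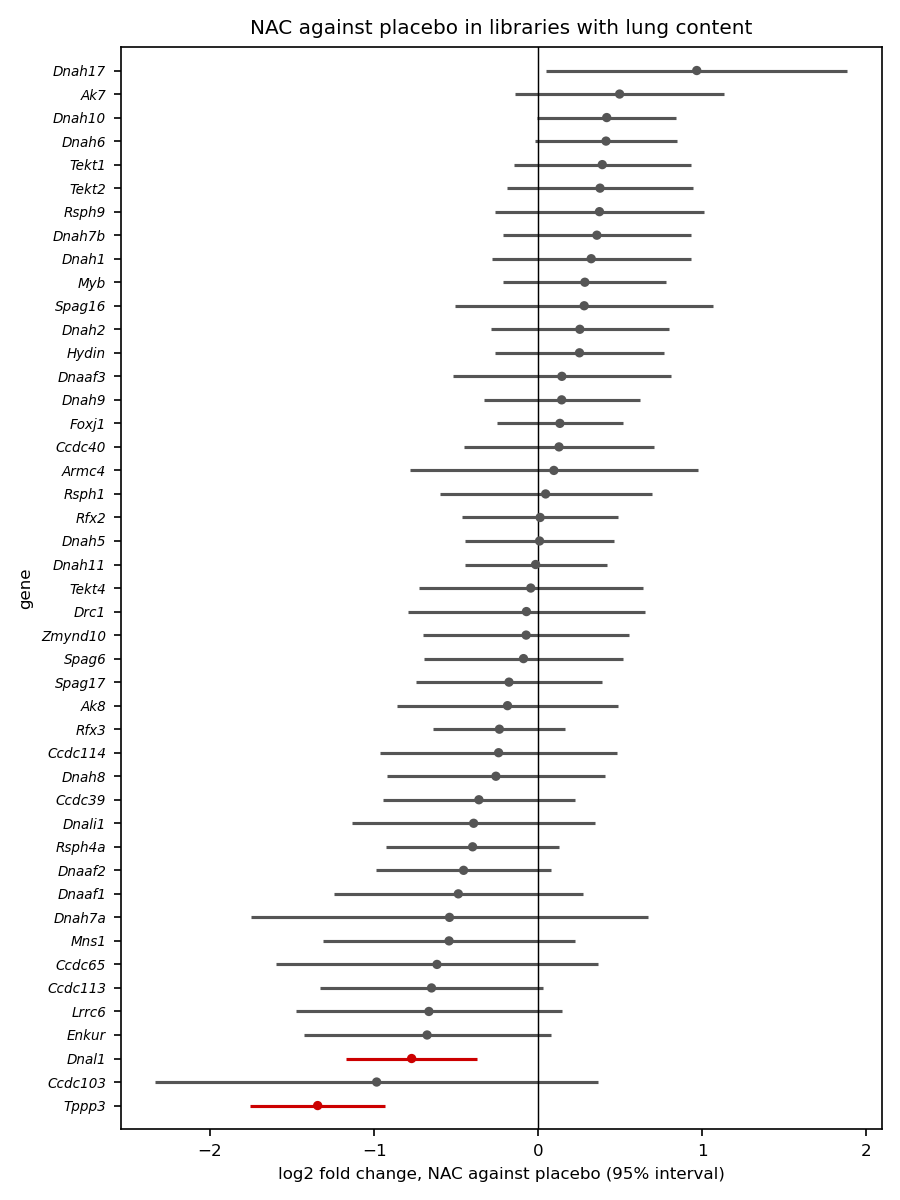
Log2 fold change, NAC against placebo, with its 95% interval (horizontal axis) for 45 motile cilium genes (vertical axis, sorted) among the 7 lung-content libraries, with called genes in red. Tppp3 (-1.34) and Dnal1 (-0.77) are called, and 30 of the 45 intervals lie within a 2-fold change either way.

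In the survival and genotype comparisons within lung content, edgeR called no member. Between the 3 dead and 4 live libraries, 0.05% of all genes were called and none of 45 members, of which 1, Tppp3, had an unadjusted p under 0.05 (log2 fold change -0.49, 95% interval -0.90 to -0.09). DESeq2 called no member. In 36 of the 45 the interval lay within a 2-fold change. Null pups were only dead and WT pups only live, so genotype and death cannot be told apart in this comparison. The dead mean gave null pups, with 1 placebo library, the same weight as dead heterozygous pups. Its intervals therefore use the spread of the other groups for the null pups. Between live heterozygous and live WT pups, 0% of genes and no member were called by edgeR, with 308 genes and 1 member, Hydin, at an unadjusted p under 0.05, and DESeq2 called 6 genes and no member. Between dead and live heterozygous pups, 0% of genes and no member were called by edgeR, with 506 genes and 1 member, Dnah17, at an unadjusted p under 0.05, and DESeq2 called 22 genes and no member. Intervals within a 2-fold change were found for 23 and 22 of the 45 members in these comparisons, so larger differences could not be bounded for the rest.

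Between dead null and dead heterozygous pups, 0.558% of all genes were called and none of 45 members, 3 of which had an unadjusted p under 0.05 (Tppp3, Dnah17 and Dnali1). Here 1 placebo library stood for the null pups. The calls and intervals therefore use the spread of the other groups and assume that null pups vary like them. Whether any member was called lower changed with the scaling, the tool, the filter and the library left out. Tppp3 was at 53.8 normalized CPM in the dead null library against 140 and 76.4 in the dead heterozygous ones (log2 fold change -1.63). Only 11 of 45 intervals lay within a 2-fold change.

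In liver content, 14 of the 46 members passed the filter of a mean of 1 CPM, which selects those that liver content expresses. The libraries labelled dead null NAC lung and dead null NAC liver were both of liver content and were counted as separate libraries. Whether they hold RNA of the same pups is not known. Dead null pups had no liver-content placebo library, so the NAC estimate rests on the other pup groups. Between 5 NAC and 3 placebo libraries edgeR called 0% of 12993 genes and no member, with 649 genes and 3 members (Mns1, Rfx2 and Zmynd10) at an unadjusted p under 0.05, and DESeq2 called 30 genes and no member. Between 4 dead and 4 live libraries edgeR called 0% of genes and no member, with 578 genes and no member at an unadjusted p under 0.05, and DESeq2 called 53 genes and no member. Mns1 was at 18.2 to 58.8 normalized CPM with NAC and 16.4 to 36.5 with placebo, and the values overlapped (log2 fold change 0.77, 95% interval 0.32 to 1.23, adjusted p = 0.95, edgeR).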

How the data were processed

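Poly(A) RNA of 16 pooled libraries was sequenced from a stranded kit. The authors deposited unnormalized estimated counts for each gene symbol, from alignment with the Omicsoft Sequence Aligner to the Ensembl mouse genome GRCm38 (mm10), and the submitters' processing notes name R 4.0.3 and edgeR 3.30.3. Between 6.5 and 8.24% of values are not whole, so estimated counts were rounded first, although the design was written for counts. The use of strand is not given in the sources used here.

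Content was set from raw CPM (lung: Sftpc at least 1000 and Alb under 1000, liver: Alb at least 50000, otherwise mixed). edgeR 4.0.16 in R 4.3.3 was used (quasi-likelihood test, TMM over the libraries of each fit, mean of at least 1 CPM, Benjamini-Hochberg adjusted p under 0.05), with pup group and treatment as terms. Pairs were compared by fold alone (2-fold, prior count 0.125). Libraries held 7236906 to 16107764 counts. Values of at most 3 counts were treated as the floor, and counting intervals (95%, exact) cover counting error only. p-values measure the spread between libraries, which are pools, around additive terms. No labelled combination had a replicate, so libraries of different pup groups served as replicates of a treatment, and the reverse. The spread therefore includes any difference of an effect between pup groups and is not one between planned replicates. In liver content, the libraries labelled dead null NAC lung and dead null NAC liver shared pup group and treatment and were counted as separate. Exon lengths are from GENCODE M21 (GRCm38). Alternatives were DESeq2 1.42.0, relative log expression scaling, no filter beyond 10 counts, summed symbols, each library left out, content alone and the mixed library as lung content.

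Genes and lists were chosen with earlier results of these data known. All members may be named, with levels for 14 fixed genes, those called, and the 5 largest changes each way where over 10 were called.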

Additional observations from a re-analysis of the deposited data

Results flagged for a closer look

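In the libraries labelled lung, the median log2 fold change of the motile cilium genes, NAC against placebo, was 3.74 in live WT and 4.20 in live heterozygous pups, and -4.02 in dead heterozygous and -3.81 in dead null pups. In those labelled liver it was -3.84 and -4.03 in live WT and live heterozygous pups, 4.81 in dead heterozygous pups and -3.86 in dead null pups. The opposite signs are of note because each pair was the same contrast by its labels. By content the pairs were not the same contrast, and the difference was not tested. With genes at the 3-count floor set to their bound, the medians were 3.58, 3.51, -3.39 and -3.21 in lung and -3.37, -3.74, 3.92 and -3.43 in liver, in the same order. The content of the 2 libraries differed in each pair, and each sign followed the library that held lung content, or both contents in dead null lung.

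A library stood apart from the others of its content in 9 of 80 gene and content combinations, where chance gives about 1 in 20, or 4. In lung content the library labelled dead null placebo liver was the highest for Rfx3 (23.2 normalized CPM) and Dnah11 (17.0), and that labelled live heterozygous NAC lung for Dnah17 (4.74) and Dnah2 (11.4). Ccdc103 was highest in the library labelled live heterozygous placebo liver (2.78) and Ak7 in that labelled dead heterozygous NAC liver (14.4). In liver content Dnah9 was highest in the library labelled dead null NAC liver (0.40), Ccdc39 in that labelled live heterozygous placebo lung (0.39) and Ak7 in that labelled live WT NAC liver (1.67). The Dnah9 and Ccdc39 values were 5 counts each, near the floor, with 0 or 1 in the other liver-content libraries. For such low counts the rate of 1 in 20 does not hold.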

How the results depend on the processing

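Counts of members higher in lung than in liver content stayed within 1.5 times the reported count under every alternative run, and no result reversed. Counts lower in lung content were 5 with marker content alone (5594 of all 14175 genes), and 3 to 5 with each library left out (5225 to 5579 of all genes). Members lower with NAC in lung content numbered 0 with the mixed library counted as lung content (351 of all 14188 genes). They numbered 1 to 3 with each library left out (361 to 1858 of all genes). No member was called between dead null and dead heterozygous pups in the main fit. Whether any was called lower there changed with the scaling, the tool, the filter and the library left out. In that comparison 1 library stood for the null pups. Among pairs, library size alone gave 2 members higher in live WT labelled liver (12.1% of all genes), and 8 and 17 lower in live WT and live heterozygous lung content (16.3 and 27.8% of all genes). A log2(CPM + 1) difference gave 2 lower in live heterozygous and 1 higher in dead heterozygous lung content (10.9 and 5.34% of all genes). An exact test at an assumed coefficient of variation of 0.2 gave 1 lower in live WT lung content (1.8% of all genes). It gave 0 higher and 2 lower in live heterozygous (5.23 and 6.25%) and 0 higher in dead heterozygous lung content (2.99%). The cause of these shifts was not tested. Lung-content libraries were the shallower ones, and 2 degrees of freedom remained in their fit.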
